A study of Homo sapiens with 8 samples.

Results

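DEAD and DEAH box RNA helicases were followed in K562 cells that carried an inducible SF3B1 transgene. They were the genes whose symbols in the deposited transcript lists read DDX or DHX, a number and, for DDX, at most 1 further letter, which gave 50 of 23857 genes. A further 7 genes of such names (DDX5, DDX11, DDX17, DDX39A, DDX41, DDX53 and DHX30) appeared in the lists only under accessions, were named through a RefSeq table, and are not among the 50. Of the 50, 42 had a mean of 1 FPKM or more (fragments counted per length of transcript and per mapped library) and were tested among 11441 genes. The 6 that act at the core of splicing (DHX15, DHX16, DHX38, DHX8, DDX46 and DDX42) were set beside the other 44, of which 36 were tested. The symbols also took in DDX12P, a pseudogene, and DDX26B, an Integrator-related gene.

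K562 is a human erythroleukaemia line, and each cell line here carried a transgene for SF3B1, the largest subunit of the SF3b complex that holds the branch point within the U2 snRNP. The group K700E_induced carried SF3B1-K700E, a substitution recurrent in myelodysplasia, and received doxycycline at 1 ug/ml for 48 h, and K700E_uninduced was the same line without it. WT_induced carried SF3B1-WT and received the same dose for 48 h, and WT_uninduced was that line without it. All 4 groups share the K562 background and growth in serum-supplemented RPMI medium. Each had 2 libraries from total RNA depleted of ribosomal RNA. The labels do not say whether a line was 1 clone, nor that replicates were separate cultures, and what the p-values measure is therefore only how far these libraries differ, possibly for technical reasons.

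DEAD and DEAH box proteins use ATP to unwind RNA or to strip proteins from it, and are named after a short motif that binds and splits the nucleotide. Nearly every step of an RNA's life has its own member, from splicing and export to translation, decay and ribosome assembly. In splicing, DDX46 and DDX42 associate with the U2 snRNP and SF3B1 early on, DHX16 starts catalysis, DHX38 acts between the steps, DHX8 frees the mRNA, and DHX15 takes the spliceosome apart.

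The codons of that motif are shown for the 6 splicing helicases because they place each gene in 1 of the 2 subfamilies. Each stretch is 36 nt of coding sequence from GENCODE v29, matched by RefSeq accession, with the 4 codons of the box in capitals.
DHX15: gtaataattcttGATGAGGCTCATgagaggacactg
DHX16: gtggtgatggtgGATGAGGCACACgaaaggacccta
DHX38: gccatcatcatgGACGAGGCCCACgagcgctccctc
DHX8: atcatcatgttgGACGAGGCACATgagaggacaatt
DDX46: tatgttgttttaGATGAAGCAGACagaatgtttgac
DDX42: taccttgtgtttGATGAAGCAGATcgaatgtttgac
The fourth codon of the box separates the subfamilies, with CAT or CAC in the 4 DHX genes and GAC or GAT in the 2 DDX genes. DDX46 and DDX42 shared 30 of 36 bases (83.3%) in this stretch. The 4 DHX genes shared 61.1% to 72.2% with each other and 36.1% to 47.2% with the 2 DDX genes.

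Depth was read from the deposited coverage per FPKM, whose median over transcripts was 3.95 to 4.47 in K700E_induced, 3.64 to 3.86 in K700E_uninduced, 3.30 to 4.78 in WT_induced and 3.71 to 4.56 in WT_uninduced. Erythroid K562 genes (GATA1, HBG1, HBG2, HBE1, HBZ and TFRC) and ABL1 were above 0 in all 8 libraries. For HBE1, libraries of 1 group lay far apart. It had 448 and 1393 FPKM in K700E_induced, 577 and 2326 in K700E_uninduced, 838 and 346 in WT_induced and 1077 and 276 in WT_uninduced. ABL1 lay between 93.9 and 118 FPKM. Of markers of other cell types, CD14 and ALB were at 0 in every library, CD3E and CD79A were at 0 in 5 or more libraries and reached at most 6.07 FPKM, while LYZ, EPCAM and COL1A1 were above 0 in all. SF3B1 itself had 28.6 and 39.0 FPKM in K700E_induced against 33.3 and 30.7 in K700E_uninduced, and 36.5 and 26.9 in WT_induced against 37.7 and 31.3 in WT_uninduced. Both pairs overlapped, with log2 fold changes of 0.06 ± 0.37 on K700E induction and -0.13 ± 0.37 on WT induction (SE). Over 11441 genes, libraries of 1 group correlated at a mean of 0.749 and libraries of different groups at 0.747.

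All helicase levels below are scaled FPKM, summed over the reference and assembled transcripts of a gene. DDX39B, also called UAP56, which serves early spliceosome assembly and mRNA export, was the highest of the 50 at a mean of 163 FPKM over 8 libraries. DDX21, a nucleolar helicase of ribosomal RNA synthesis, followed at 87.0, DHX9, a nuclear helicase of many RNAs, at 65.2, DDX6, a decay and translational repression factor, at 37.6, and DDX1, a member of the tRNA ligase complex, at 37.3. Outside the 50, DDX17 averaged 101 FPKM, DDX5 91.2, DHX30 63.6, DDX39A 57.6 and DDX41 50.5, all above DDX6. Within the 50, DHX15 came next at 36.7 FPKM and led the splicing helicases, followed by DDX42 at 31.2, DDX46 at 30.9, DHX16 at 19.7, DHX38 at 16.7 and DHX8 at 10.9. The libraries of DHX15, DDX42 and DDX46 overlapped each other, as did those of DHX16, DHX38 and DHX8, so neighbours in this order were not apart beyond their spread. DDX39B shares 1833 nt of exons on its own strand with the readthrough gene ATP6V1G2-DDX39B, which ran from 0 to 61.7 FPKM. Assembled transcripts that matched both equally were summed with DDX39B.

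**Figure D1:**
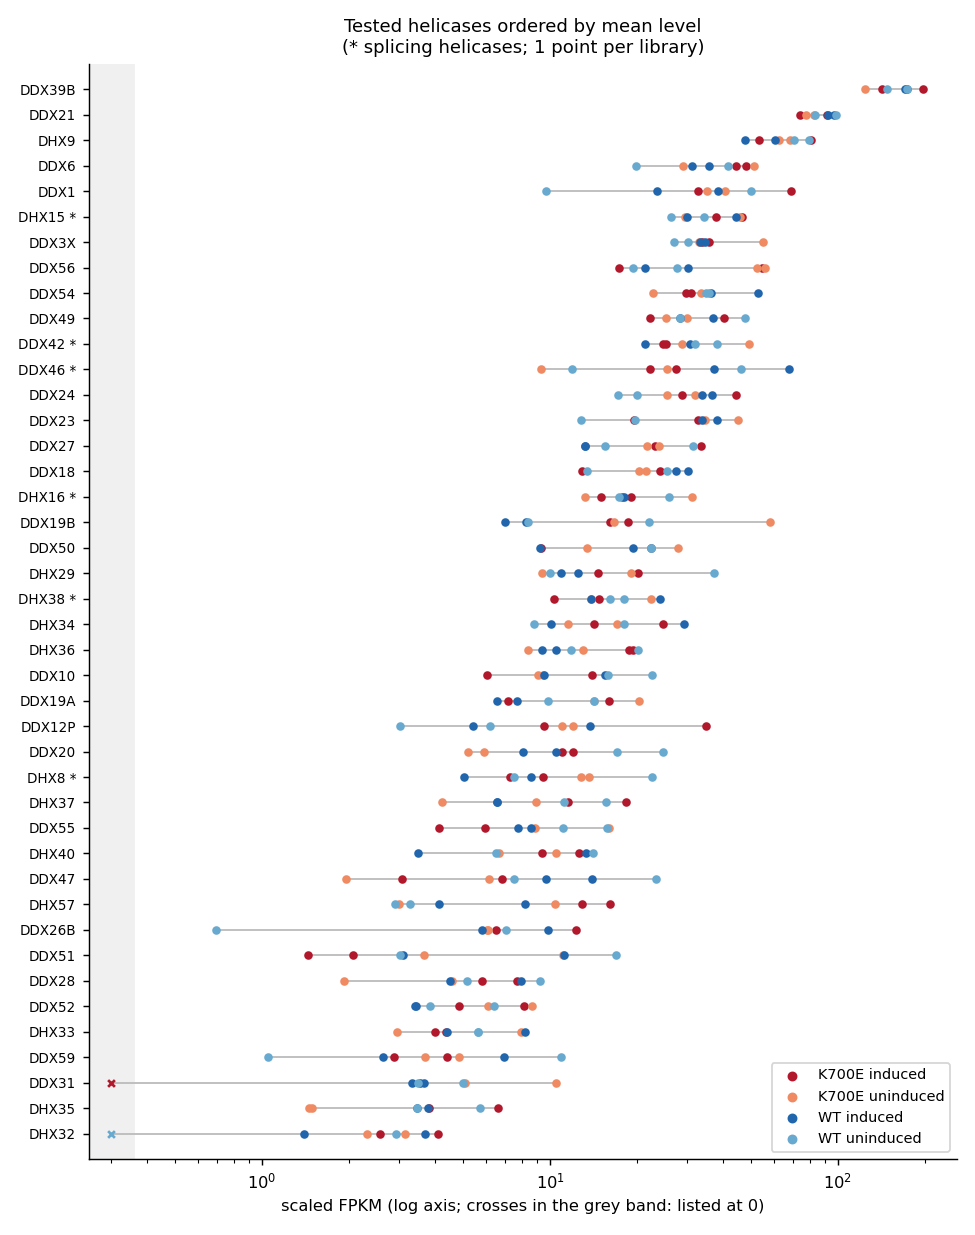
Scaled FPKM on a log axis of the 42 tested helicases, 1 point per library, ordered by mean level, with grey lines from the lowest to the highest library. DDX39B stood above all others in each library, and crosses mark DDX31 and DHX32, each listed at 0 in 1 library.

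Of the 50 helicases, 40 were above 0 in every library and 29 averaged 10 FPKM or more. DDX31 and DHX32 were tested but listed at 0 in 1 library each. The 8 others were below a mean of 1 FPKM and were not tested. They were the RNA sensors DDX58 and DHX58, the interferon-inducible DDX60 and DDX60L, the germ line genes DDX4, DDX25 and DDX43, and DDX3Y. DDX4, DDX25, DDX43 and DDX60 were listed at 0 in all 8 libraries, and DDX58 reached its highest value, 1.57 FPKM, in K700E_uninduced replicate 2. The coefficient of variation over the 8 libraries had a median of 29.3% in the 6 splicing helicases (21.6% to 61.7%) and of 41.4% in the other 36 (10.2% to 87.1%). DDX21 varied least, between 74.1 and 98.2 FPKM.

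DDX46, the human Prp5 that helps the U2 snRNP onto the branch point, lies on the plus strand of hg19 chr5:134094461-134166812. It had 27.5 and 22.3 FPKM in K700E_induced, 25.5 and 9.29 in K700E_uninduced, 67.4 and 37.2 in WT_induced and 46.1 and 11.9 in WT_uninduced. Both K700E_induced libraries lay below both WT_induced libraries, and the libraries of each uninduced group lay far apart. The log2 fold change was -1.004 ± 0.72 (SE, n = 2 each) for K700E_induced over WT_induced (limma adjusted p = 0.949) and 0.66 ± 0.72 for K700E_induced over K700E_uninduced (limma adjusted p = 1). It was 1.07 ± 0.72 for WT_induced over WT_uninduced and -0.59 ± 0.72 for K700E_uninduced over WT_uninduced. Much of the WT_induced level was on short assembled pieces of the gene, and weighting each transcript by its length gave 27.1 and 10.8 FPKM in the K700E_induced libraries and 20.6 and 12.8 FPKM in the WT_induced ones, with a log2 fold change of 0.08 ± 0.62.

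DDX42, known as SF3b125, associates with SF3B1 in the U2 snRNP and lies on the plus strand of hg19 chr17:61851567-61896677. It had 24.6 and 25.2 FPKM in K700E_induced against 28.7 and 49.0 in K700E_uninduced, and 30.6 and 21.3 in WT_induced against 38.0 and 31.9 in WT_uninduced. The induced libraries were thus below the uninduced ones in both lines, without overlap. The log2 fold changes were -0.58 ± 0.41 and -0.44 ± 0.41 (SE, n = 2 each), with limma adjusted p of 1 and 0.994. With length-weighted sums the K700E_induced libraries had 23.9 and 24.4 FPKM and the K700E_uninduced ones 27.9 and 24.1, which overlap. The change on K700E induction was then -0.10 ± 0.32. The WT groups stayed apart, at 30.0 and 20.9 FPKM in WT_induced and 33.6 and 30.9 in WT_uninduced. Without that weighting, the log2 fold change was -0.04 ± 0.41 between the induced groups and 0.11 ± 0.41 between the uninduced groups.

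DHX16, the human Prp2, remodels the spliceosome just before the first catalytic step and lies on the minus strand of hg19 chr6:30620896-30640830. It had 15.0 and 19.1 FPKM in K700E_induced, 13.2 and 31.2 in K700E_uninduced, 17.8 and 18.1 in WT_induced and 17.3 and 25.9 in WT_uninduced. Every pair of groups compared overlapped, and the 4 log2 fold changes ran from -0.26 ± 0.52 on K700E induction to -0.06 ± 0.52 between the uninduced lines. Exons of C6orf136 overlap 92 nt of it on the other strand, and the sources do not say whether reads were counted by strand.

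DHX38, the human Prp16, acts between the catalytic steps and lies on the plus strand of hg19 chr16:72127615-72146811. It had 10.3 and 14.8 FPKM in K700E_induced, 22.5 and 13.9 in K700E_uninduced, 13.8 and 24.1 in WT_induced and 18.1 and 16.1 in WT_uninduced. K700E_induced replicate 1 was the lowest of the 8 libraries, and the groups overlapped. The log2 fold change was -0.50 ± 0.50 on K700E induction, 0.10 ± 0.50 on WT induction, and -0.55 ± 0.50 for K700E_induced over WT_induced (SE, n = 2 each). It shares 154 nt of exons with TXNL4B on the other strand.

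DHX8, the human Prp22, releases the spliced mRNA and lies on the plus strand of hg19 chr17:41561334-41601680. It had 9.42 and 7.29 FPKM in K700E_induced against 12.8 and 13.6 in K700E_uninduced, and 8.56 and 5.02 in WT_induced against 22.7 and 7.52 in WT_uninduced. Both K700E_induced libraries were below both K700E_uninduced libraries, while the WT groups overlapped. The log2 fold changes of -0.64 ± 0.66 and -0.95 ± 0.66 had limma adjusted p of 1 and 0.994. Between the induced groups the value was 0.31 ± 0.66, and between the uninduced groups 0.01 ± 0.66.

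DHX15, the human Prp43, disassembles the spent spliceosome and lies on the minus strand of hg19 chr4:24529088-24586184. It had 46.5 and 37.7 FPKM in K700E_induced, 29.5 and 45.5 in K700E_uninduced, 44.1 and 30.0 in WT_induced and 34.4 and 26.2 in WT_uninduced. The groups overlapped in each of the 4 comparisons, and the log2 fold changes lay between 0.19 ± 0.40 on K700E induction and 0.28 ± 0.40 between the uninduced lines. The deposited 95% interval of its reference transcript had a half-width of 3.19% to 6.10% of the value within a library.

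**Figure D2:**
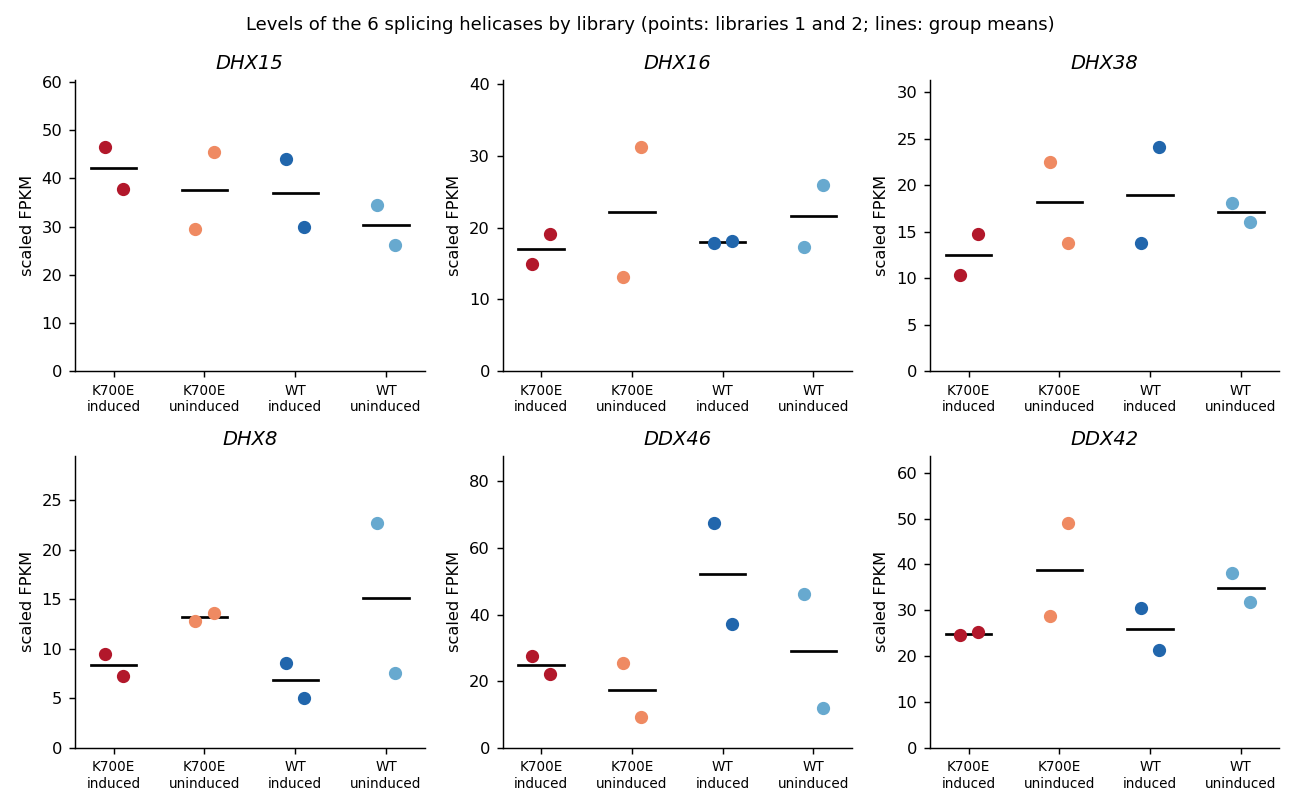
Scaled FPKM of the 6 splicing helicases in each library, with 1 panel per gene, points for the 2 libraries of each group and lines at the group means. DDX42 and DHX8 had both K700E_induced libraries below both K700E_uninduced libraries, and DDX46 had both below both WT_induced libraries. With length-weighted sums, not drawn here, DDX42 and DDX46 overlapped in these comparisons.

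K700E induction, the comparison of K700E_induced with K700E_uninduced, put 4 of the 6 splicing helicases below 0 and 2 above, with a median log2 fold change of -0.38. The other 36 had a median of 0.16 with 22 above 0, and all 11441 genes a median of -0.01. With length-weighted sums the median of the 6 was -0.14. No helicase passed limma's adjusted threshold of 0.05, where 0.0175% of all genes did, and 0 of 42 had an unadjusted p under 0.05, against 4.64% of all genes. Groups did not overlap for 7 of 42 helicases (16.7%) on the higher side and 6 (14.3%) on the lower, against 16.0% and 17.7% of all genes, so the helicases were close to the background.

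The highest fold changes on K700E induction among helicases above 0 in all libraries belonged to DHX35, DHX57 and DHX37. DHX35, a protein found in catalytic spliceosomes, had 3.81 and 6.59 FPKM in K700E_induced against 1.49 and 1.46 in K700E_uninduced, a log2 fold change of 1.49 ± 0.76. DHX57 had 13.0 and 16.2 FPKM in K700E_induced against 10.4 and 2.998 in K700E_uninduced (1.28 ± 0.76, and 0.88 ± 0.67 with length-weighted sums). DHX37, which matures the small ribosomal subunit, had 11.5 and 18.4 FPKM in K700E_induced against 4.22 and 8.97 in K700E_uninduced (1.17 ± 0.60). In each of the 3 the groups did not overlap, and limma's adjusted p was 1. In bulk RNA a higher or lower level may mean more or fewer cells with the transcript or more or less of it per cell, which cannot be told apart here.

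The lowest of these were DDX51, DDX55 and DDX19B. DDX51, a factor of large ribosomal subunit assembly, had 1.45 and 2.06 FPKM in K700E_induced against 3.64 and 11.1 in K700E_uninduced, a log2 fold change of -1.63 ± 1.04. DDX55, of the same pathway, had 4.13 and 5.96 FPKM in K700E_induced against 16.1 and 8.89 in K700E_uninduced (-1.19 ± 0.58). DDX19B, an mRNA export factor at the nuclear pore, had 18.7 and 16.2 FPKM in K700E_induced against 16.6 and 58.0 in K700E_uninduced (-0.82 ± 0.70). The groups overlapped, and 1 uninduced library lay far above the other 3. Without that library, K700E_uninduced replicate 2, its log2 fold change was 0.07. DDX31, another ribosome assembly factor, had 3.54 FPKM and a listed 0 in K700E_induced, against 10.5 and 5.06 FPKM in K700E_uninduced. DDX19B lies beside its near copy DDX19A, so reads may be divided between them.

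WT induction, the comparison of WT_induced with WT_uninduced, gave the 6 splicing helicases a median log2 fold change of -0.07, the other 36 one of -0.18 and all genes 0.00. No helicase passed limma's adjusted threshold (0.0262% of all genes did), and 2 of 42 had an unadjusted p under 0.05 (4.35% of all genes). Groups did not overlap for 6 helicases (14.3%) on the higher side, against 15.0% of all genes, and for 12 (28.6%) on the lower, against 14.1%.

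DDX23, the human Prp28 that exchanges U1 for U6 at the 5′ splice site, was among the highest on WT induction and had an unadjusted p of 0.028. It had 37.9 and 33.8 FPKM in WT_induced, well above 12.8 and 19.7 in WT_uninduced, which is 1.15 ± 0.43 on the log2 scale (limma adjusted p = 0.994). DDX26B stood at 1.43 ± 0.94 and DDX46 at 1.07 ± 0.72, both with overlapping groups. DDX24, a nucleolar helicase, had 33.7 and 36.4 FPKM in WT_induced against 20.05 and 17.3 in WT_uninduced (0.89 ± 0.38, limma adjusted p = 0.994).

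The lowest on WT induction were DDX20 at -1.12 ± 0.51, DHX37 at -0.97 ± 0.60 and DHX8 at -0.95 ± 0.66. DDX20, also called gemin3, works in the SMN complex that loads Sm proteins onto snRNAs, and shares 97 nt of exons with FAM212B on the other strand. It had 8.08 and 10.5 FPKM in WT_induced against 24.6 and 17.1 in WT_uninduced, so both induced libraries were lower. DHX37 had 6.52 and 6.53 FPKM in WT_induced against 11.2 and 15.6 in WT_uninduced, also without overlap.

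The difference between the 2 inductions was tested as an interaction. No helicase passed limma's adjusted threshold (0.0262% of all genes did), and 3 of 42 had an unadjusted p under 0.05 (7.14%, against 4.32% of all genes). These were DHX37 at 2.14 ± 0.84, DDX20 at 2.11 ± 0.72 and DDX23 at -1.77 ± 0.61, each with limma adjusted p = 0.999. The other extremes were DHX35 at 1.75 ± 1.08, DDX51 at -1.36 ± 1.47 and DDX56 at -0.92 ± 0.78. The 6 splicing helicases had a median of -0.11, against 0.01 in the other 36 and -0.05 in all genes.

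DDX20, DHX37 and DHX36 had higher K700E_induced than K700E_uninduced libraries and lower WT_induced than WT_uninduced libraries, in both cases without overlap. They are 3 of 42 helicases (7.14%), against 2.16% of all genes. DDX20 had 11.0 and 11.98 FPKM in K700E_induced against 5.19 and 5.90 in K700E_uninduced, a log2 fold change of 0.99 ± 0.51. DHX36, a helicase of G-quadruplex RNA, had 18.7 and 19.4 FPKM in K700E_induced against 13.0 and 8.38 in K700E_uninduced (0.84 ± 0.50), and 10.5 and 9.41 in WT_induced against 20.2 and 11.9 in WT_uninduced (-0.61 ± 0.50). DDX23 had the reverse order, with 19.5 and 32.7 FPKM in K700E_induced against 34.4 and 44.9 in K700E_uninduced (-0.63 ± 0.43), as did 2.48% of all genes. For DDX20, DHX37 and DDX23 the uninduced lines were themselves apart without overlap, with log2 fold changes of -1.80, -1.04 and 1.28 for K700E_uninduced over WT_uninduced.

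**Figure D3:**
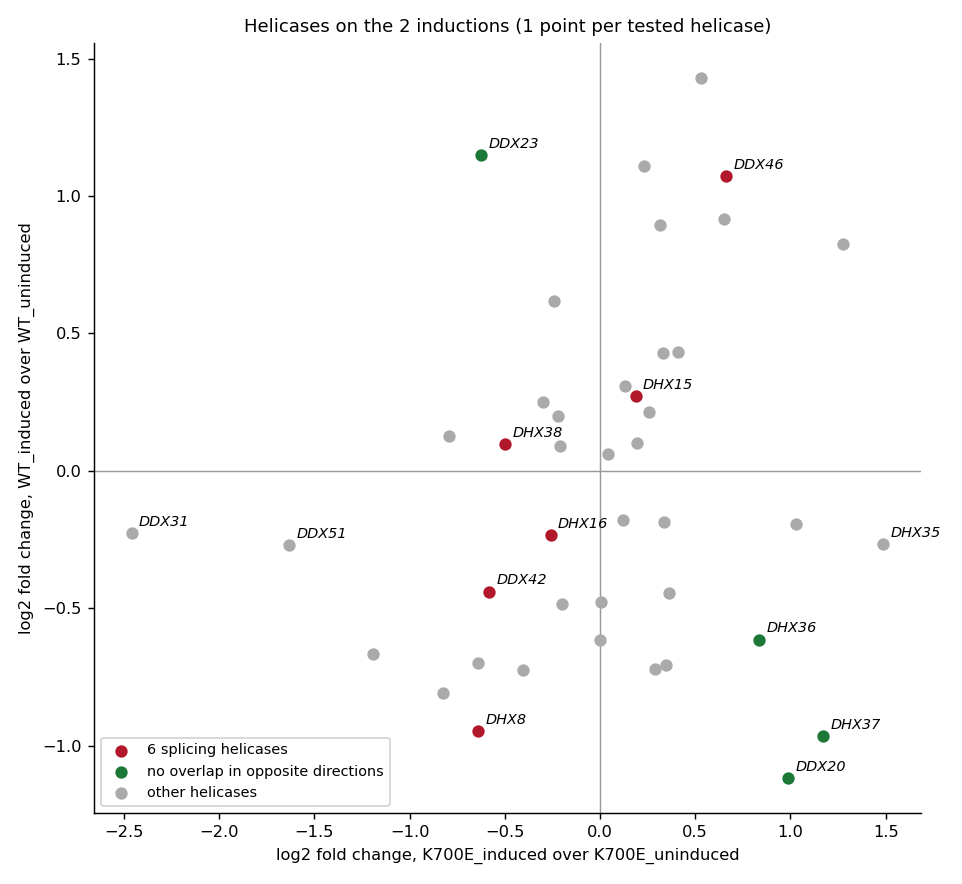
Log2 fold change on K700E induction (horizontal axis) against that on WT induction (vertical axis), 1 point per tested helicase. DDX20, DHX37 and DHX36 lay at the lower right and DDX23 at the upper left, while the 6 splicing helicases spread over 3 quadrants.

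K700E_induced over WT_induced compared the 2 lines under the same doxycycline. Transgene and line cannot be told apart in it. The 6 splicing helicases had a median log2 fold change of -0.06, the other 36 one of 0.19 and all genes 0.00. No helicase passed limma's adjusted threshold (0.0350% of all genes did), and 0 of 42 had an unadjusted p under 0.05 (5.20% of all genes). Outside the 42, DDX5, a splicing and transcription cofactor, stood at -1.14 ± 0.35 with limma adjusted p = 0.845, and its unadjusted p was under 0.05. It had 64.8 and 62.0 FPKM in the K700E_induced libraries and 130.3 and 152 FPKM in the WT_induced ones. The gap was smaller with length-weighted sums, at 63.9 and 61.1 FPKM in K700E_induced and 78.2 and 80.4 FPKM in WT_induced. Groups did not overlap for 10 helicases (23.8%) on the higher side and 9 (21.4%) on the lower, against 16.2% and 16.5% of all genes. Among the splicing helicases this held for DDX46 alone, on the lower side.

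The 9 tested helicases listed under export, translation and decay of mRNA (DDX1, DDX3X, DDX6, DDX19A, DDX19B, DHX9, DHX29, DHX34 and DHX36) lay above 0 in K700E_induced over WT_induced, as did 5653 of 11441 genes. Their median log2 fold change was 0.54. Groups did not overlap for 4 of the 9 on the higher side and 0 on the lower, against 16.2% and 16.5% of all genes. The count above 0 was also 9 of 9 without scaling of the libraries and with length-weighted sums. No member passed the test. The count above 0 rests on the list, since DDX39B, which also serves export but was listed with the spliceosome, stood at -0.04 ± 0.29, and DDX39A, an export helicase outside the 50, had a listed 0 and 68.2 FPKM in K700E_induced and 46.1 and 68.4 FPKM in WT_induced. It also takes in DDX1 and DHX9, which were described above by other roles. DDX19B stood at 1.15 ± 0.70, with 18.7 and 16.2 FPKM in the K700E_induced libraries and 8.25 and 6.97 FPKM in the WT_induced ones. DHX36 stood at 0.90 ± 0.50, DDX1 at 0.65 ± 0.74 and DDX3X, a translation initiation helicase, at 0.03 ± 0.37. Between the uninduced lines, 6 of the 9 already lay above 0, with a median of 0.42. In the interaction the median of the 9 was 0.04.

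The 16 helicases of ribosome biogenesis were split, with 6 above and 10 below 0 and a median of -0.29. Groups did not overlap for 3 of the 16 on the higher side and 7 on the lower, against 16.2% and 16.5% of all genes. DHX37, at 11.5 and 18.4 FPKM in the K700E_induced libraries, was above 6.52 and 6.53 FPKM in WT_induced (1.10 ± 0.60). DDX27, at 33.4 and 23.1 FPKM in the K700E_induced libraries, was above 13.2 and 13.2 FPKM in WT_induced (1.05 ± 0.47). DDX51 stood at -1.54 ± 1.04 and DDX47, which acts on early ribosomal RNA precursors, at -1.26 ± 0.82. DHX57 was the highest of all tested helicases at 1.24 ± 0.76, with 13.0 and 16.2 FPKM in the K700E_induced libraries and 8.21 and 4.12 FPKM in the WT_induced ones. Neither the rank nor the gap held with length-weighted sums. These were 11.1 and 7.06 FPKM in K700E_induced and 8.12 and 4.10 FPKM in WT_induced, which overlap. DHX57 then stood at 0.57 ± 0.67, below DDX19B at 1.20 ± 0.54.

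**Figure D4:**
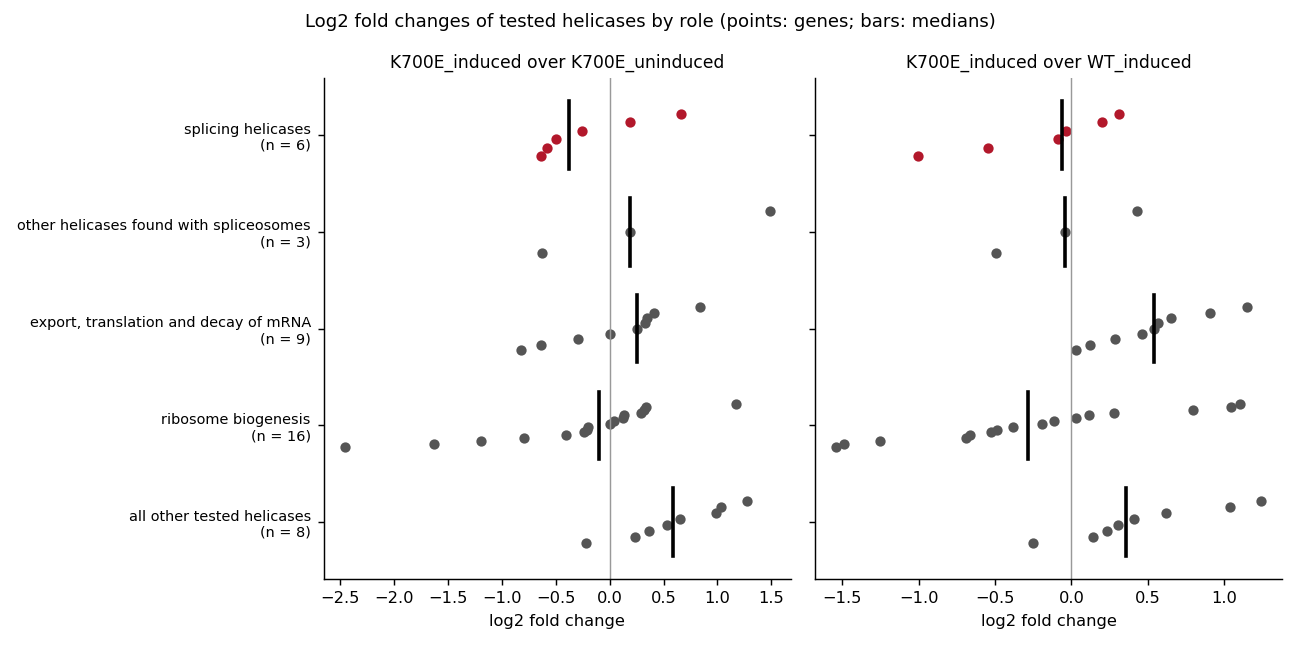
Log2 fold changes of the 42 tested helicases by role for K700E_induced over K700E_uninduced (left) and K700E_induced over WT_induced (right), which share the K700E_induced libraries. Points are genes and bars medians, and in the right panel the 9 genes listed under export, translation and decay lay above 0, while DDX39B, listed with the spliceosome, stood at -0.04.

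K700E_uninduced over WT_uninduced compared the lines without doxycycline. The 6 splicing helicases had a median log2 fold change of 0.03, the other 36 one of -0.04 and all genes 0.02, and none of the 6 had groups that did not overlap. Over the 42, groups did not overlap for 7 (16.7%) on the higher side and 9 (21.4%) on the lower, against 16.8% and 15.7% of all genes. No helicase passed limma's adjusted threshold (0.0175% of all genes did), and 2 of 42 had an unadjusted p under 0.05 (4.69% of all genes).

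Those 2 were DDX20 and DDX23. DDX20 had 5.19 and 5.90 FPKM in K700E_uninduced against 24.6 and 17.1 in WT_uninduced, which is -1.80 ± 0.51 on the log2 scale (unadjusted p = 0.00765, limma adjusted p = 0.949). DDX23 had 34.4 and 44.9 FPKM in K700E_uninduced against 12.8 and 19.7 in WT_uninduced (1.28 ± 0.43, unadjusted p = 0.0173, limma adjusted p = 0.967). DDX12P at 1.31 ± 0.78 and DDX56 at 1.20 ± 0.55 completed the highest among helicases above 0 in all libraries, and DDX47 at -1.77 ± 0.82 and DHX35 at -1.32 ± 0.76 the lowest. DDX56, a nucleolar helicase, had 52.1 and 55.6 FPKM in K700E_uninduced against 19.5 and 27.7 in WT_uninduced. DDX12P is a near copy of DDX11, so reads may be divided between them.

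Genes that work with the splicing helicases gave no call. SUGP1, a G-patch protein reported to recruit DHX15 to the branch site with SF3B1, had 11.2 and 17.9 FPKM in K700E_induced, 13.9 and 9.68 in K700E_uninduced, 16.8 and 20.9 in WT_induced and 5.65 and 26.7 in WT_uninduced. All 4 comparisons of it overlapped. TFIP11, the G-patch partner of DHX15 in disassembly, stood at 0.57 ± 0.72 on K700E induction, and GPKOW, the partner of DHX16, at 0.01 ± 0.67. Of 20 tested G-patch proteins, 0 were called by limma on K700E induction, 2 had an unadjusted p under 0.05 (4.64% of all genes did) and the median was 0.02. These were CHERP, with 106.1 and 67.5 FPKM in the K700E_induced libraries and 32.1 and 38.7 FPKM in the K700E_uninduced ones (1.25 ± 0.39), and ZGPAT, with 26.4 and 75.7 FPKM in the K700E_induced libraries and 6.34 and 23.1 FPKM in the K700E_uninduced ones (1.83 ± 0.70), both with limma adjusted p = 0.976. Length-weighted sums in the same order were 66.3 and 50.8 against 31.6 and 38.1 FPKM for CHERP. For ZGPAT they were 26.6 and 20.3 against 5.76 and 15.7 FPKM, and reference transcripts held 12.1% of its summed FPKM. SNRNP200, the U4/U6 unwinding helicase, stood at -0.21 ± 0.30, AQR at -0.06 ± 0.47 and EIF4A3, the exon junction helicase, at 0.17 ± 0.63.

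Transcript shares were compared next, since SF3B1-K700E is known to change the choice of 3′ splice site. Of 24437 transcripts in 7585 genes, 109 belonged to 34 helicases. None of the 109 was called by limma in any of the 5 comparisons, as none was among all 24437 (0%). On data simulated for K700E induction, limma called 0 of 50 transcripts moved by 6 on the log2 scale and 1 of 50 moved by 8. The lack of calls therefore says little about the shares. The helicase transcripts with an unadjusted p under 0.05 numbered 3 for K700E_induced over K700E_uninduced, 6 for WT_induced over WT_uninduced, 6 for K700E_induced over WT_induced, 0 for the uninduced pair of lines and 6 for the interaction. The matching shares of all transcripts were 3.73%, 3.98%, 4.02%, 3.88% and 3.59%. Many transcripts stood at 0% in 1 library and at 100% in another of the same group.

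DHX16 has 2 reference forms with the same acceptor and different first donors, and no assembled form. The form NM_003587 made up 100% and 100% of DHX16 in K700E_induced, 100% and 0% in K700E_uninduced, 29.6% and 59.9% in WT_induced and 100% and 100% in WT_uninduced. WT_induced was thus the 1 group in which both forms were present in both libraries. The log2 ratio of this form to the other stood at -5.75 ± 3.27 for WT_induced over WT_uninduced and differed by 11.5 ± 4.62 between the inductions (limma adjusted p = 0.838).

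DDX42 had 2 reference forms that differ by an exon near the 5′ end. NM_203499, without that exon, held 100% and 100% of DDX42 in K700E_induced, 87.3% and 0% in K700E_uninduced, 49.9% and 100% in WT_induced and 38.4% and 100% in WT_uninduced. Both K700E_induced libraries were above both K700E_uninduced libraries, with an unadjusted p of 0.0437 and a limma adjusted p of 0.925. NM_007372 reached 50.1% in WT_induced replicate 1 and 12.7% in K700E_uninduced replicate 1 and was at 0% in the other 6 libraries. In K700E_uninduced replicate 2, assembled forms of 13 or fewer introns held the whole gene.

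DDX46 was the most divided, with 9 assembled forms beside 1 reference form. The reference form held 100% and 0% of DDX46 in K700E_induced, 17.4% and 100% in K700E_uninduced, 10.9% and 0% in WT_induced and 43.6% and 79.0% in WT_uninduced. An assembled form of 5 introns alone held 67.7% in WT_induced replicate 1. The reference form of DHX15 held 62.4% in WT_induced replicate 1 and 100% in the other 7 libraries, and that of DHX38 28.8% in K700E_uninduced replicate 1, 80.4% in WT_induced replicate 2 and 100% in the other 6. For DHX8 it held 51.2% in K700E_induced replicate 2, 0% in WT_uninduced replicate 1 and 100% in the other 6.

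Among the other helicases, the smallest p on K700E induction belonged to short assembled forms of DDX39B and DDX56. The DDX39B form of 4 introns held 0% in both K700E_induced libraries against 35.1% and 49.4% in K700E_uninduced (a log2 ratio change of -7.93 ± 3.11). Assembled forms that matched DDX39B and its readthrough gene equally were counted for DDX39B. The DDX56 form of 4 introns held 0% in both K700E_induced libraries against 60.1% and 52.3% in K700E_uninduced (-6.33 ± 2.50). The DDX6 form NM_001257191 held 100% in both K700E_induced libraries against 18.0% and 57.6% in K700E_uninduced, and the DDX19A form NM_018332 100% in both against 67.6% and 16.5%. An assembled DHX29 form held 100% in K700E_uninduced replicate 1 and 0% in the other 7 libraries. All 5 had a limma adjusted p of 0.925.

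For K700E_induced over WT_induced, the smallest p were those of DDX49, DDX39B, DDX56 and both forms of DHX36, each with a limma adjusted p of 0.896. The DDX49 form NR_033677 held 0% in both K700E_induced libraries against 19.5% and 100% in WT_induced (a log2 ratio difference of -7.86 ± 2.60). The DDX39B form NM_080598 held 42.8% and 29.7% in K700E_induced against 0% in both WT_induced libraries (7.60 ± 2.59). The DDX56 form NM_019082 held 59.4% and 6.68% in K700E_induced against 100% in both WT_induced libraries (-7.25 ± 2.68).

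DHX36 has 2 reference forms that join 1 donor to acceptors 42 nt apart on hg19 chromosome 3, minus strand, with intron ends at 154013129 (upstream, NM_020865) and 154013087 (downstream, NM_001114397). The stretch between them is coding and keeps the reading frame. It is shown from GENCODE v29 with the 42 nt that only the upstream acceptor keeps in capitals and 12 nt on each side in lower case.
DHX36: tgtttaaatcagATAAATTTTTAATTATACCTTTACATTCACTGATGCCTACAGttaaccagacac
The capitals end in CAG, the last bases before the downstream acceptor.

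The upstream acceptor held 100% and 78.5% of the FPKM on the pair in K700E_induced, 0% and 100% in K700E_uninduced, 0% and 0% in WT_induced and 100% and 100% in WT_uninduced. K700E_induced was above WT_induced and WT_induced below WT_uninduced, both without overlap, as were 5.95% and 5.03% of 1312 acceptor pairs of all genes in these directions. The opposite directions held for 5.34% and 5.03% of the pairs. K700E_induced and K700E_uninduced overlapped. The share of NM_020865 differed between the inductions by 13.2 ± 4.41 on the log2 ratio scale (unadjusted p = 0.00933, limma adjusted p = 0.838).

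Helicase genes held 6 pairs of acceptors within 100 nt that share a donor, of 1942 in all genes. In DDX49, a factor of ribosome assembly, they lay 71 nt apart and the upstream one held 100% and 100% in K700E_induced, 50.9% and 100% in K700E_uninduced, 80.5% and 0% in WT_induced and 100% and 100% in WT_uninduced. In DDX3X, 3 nt apart, it held 30.6% and 54.0% in K700E_induced, 0% and 100% in K700E_uninduced, 100% and 0% in WT_induced and 100% and 100% in WT_uninduced. In DDX54, also 3 nt apart, it held 0% and 30.3% in K700E_induced, 26.9% and 36.1% in K700E_uninduced, 0% and 0% in WT_induced and 0% and 100% in WT_uninduced. DDX49 was thus, with DHX36, higher in K700E_induced than in WT_induced and lower in WT_induced than in WT_uninduced. No helicase pair was without overlap on K700E induction, where 6.10% of all pairs were higher and 4.57% lower, or between the uninduced lines, where 5.72% were higher and 5.56% lower.

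The other 2 pairs had an acceptor outside the reference. In DHX8, WT_uninduced replicate 1 placed all 22.7 FPKM on an acceptor 6 nt downstream of the reference one, and the other 7 libraries none. The last intron of that form ended 12784 nt downstream of the reference acceptor, beyond the annotated end of the gene. In the DDX12P pseudogene, K700E_uninduced replicate 1 used an acceptor 39 nt downstream for 52.7% of the pair and the other 7 libraries did not use it. Over all libraries, the helicases had 786 reference introns in use and 14 outside the reference, of which 8 had a donor, 5 an acceptor and 1 only the pairing outside it. None of the 14 occurred in more than 2 libraries.

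SF3B1 mutants are known for acceptors 10 to 50 nt upstream of the usual one. Over all genes, such acceptors outside the reference numbered 27 and 32 in K700E_induced, 12 and 17 in K700E_uninduced, 23 and 17 in WT_induced and 18 and 12 in WT_uninduced. In the helicases there were 0 in each of the 8 libraries. With so few in all genes, none in 50 genes says little about their use.

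**Figure D5:**
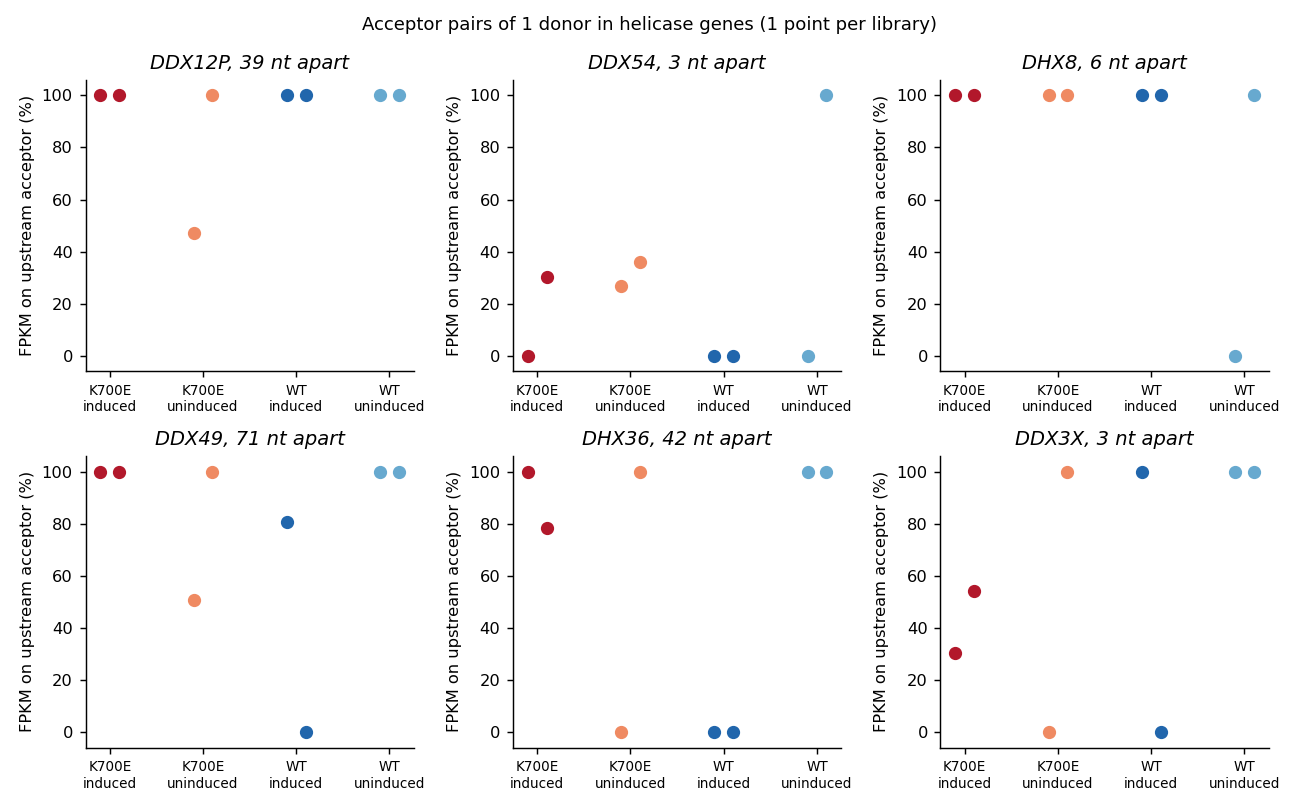
Share of FPKM on the upstream acceptor (percent) for the 6 pairs of acceptors of 1 donor in helicase genes, 1 point per library and 1 panel per pair. DHX36 was at 0% in both WT_induced libraries and at 100% and 78.5% in K700E_induced, and in DDX3X libraries of 1 group lay at 0% and 100%.

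The promoters of the helicases were read from RefSeq (GRCh38.p14, a window around each gene's start that lies mostly upstream), where 44 of the 50 had an entry. The letters CCGGAAG, on either strand, were in 19 of 44 (43.2%), against 14.2% of 15843 protein-coding genes and 21.4% of the 8743 with a mean of 1 FPKM or more. An observed over expected CpG of 0.6 or more was found in 88.6% of helicase promoters, against 65.8% and 85.4%. TATAAA on either strand was in 4.55%, against 9.63% and 5.26%. Neither set of letters contains the other, and a match describes the sequence only.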

How the data were processed

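Total RNA of 8 K562 libraries was sequenced, and the submitters' processing notes name CASAVA, TopHat, Cufflinks and the hg19 build, with versions not given in the sources used here. The authors deposited 1 transcript list per library with FPKM, a 95% interval and coverage, per the file headers. Scores and other columns were not used. Genes were named by the lists where possible, otherwise through a RefSeq table, and 339 of 40801 accessions kept no name. FPKM was summed over reference transcripts and over assembled transcripts of 300 nt or more that shared introns with the gene. Library medians were scaled by factors of 0.990 to 1.04, and log2(FPKM + 0.5) was fitted with limma 3.58.1 in R 4.3.3 over the 4 group means, with p-values adjusted over the 11441 genes with a mean of 1 FPKM or more. Fold changes are on that scale, which understates low genes. Transcript shares of 5% to 95% were tested as log2((FPKM + 0.5)/(rest + 0.5)). Tables and figures used Python 3.11.15, pandas 2.3.3, numpy 2.4.6 and matplotlib 3.10.9.

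Tested on simulated data for K700E induction over 11441 genes, limma called 8, 30, 38 and 45 of 50 genes moved by 2, 4, 6 and 8 on the log2 scale, and 11 of 11241 unmoved ones. For shares over 24437 transcripts it called 0, 0, 0 and 1 of 50. Members and lists were chosen with earlier results of these data known. The text names the 6 splicing helicases, the 5 helicases of highest mean, per comparison the 3 highest and 3 lowest fold changes among helicases above 0 in all libraries, transcripts of the 6 and the 5 other helicase transcripts of smallest p for K700E_induced over K700E_uninduced and over WT_induced, and members of a role where it is described. Helicases of opposite direction on the inductions, DDX31, the acceptor pairs, DDX5, DDX39A, CHERP and ZGPAT were chosen after their values were seen. The alternatives tried were other pseudocounts, scaling and filters, reference transcripts alone, a replicate block, the compared groups alone and leaving out each library. Strand-specific counting is not given in the sources used here, and 9 helicases share exon bases with a gene on the other strand. Some of the cell type markers read are not reported here.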

Additional observations from a re-analysis of the deposited data

Results flagged for a closer look

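The helicases DHX37, DDX20, DHX36 and DDX23 had fold changes of opposite sign on the 2 inductions, with no overlap between induced and uninduced libraries in either line. The log2 fold change on K700E induction minus that on WT induction was 2.14 ± 0.84 (SE) for DHX37, 2.11 ± 0.72 for DDX20, 1.45 ± 0.71 for DHX36 and -1.77 ± 0.61 for DDX23. Limma's test of this difference gave an adjusted p of 0.999 for each. DHX37, DDX20 and DHX36 had higher induced than uninduced libraries in the K700E line and lower ones in the WT line, and DDX23 had the reverse, in 4 of 4 libraries of each line. The uninduced lines differed without overlap for DDX20 (-1.80), DHX37 (-1.04) and DDX23 (1.28), and the part of this gap in the result was not tested.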

How the results depend on the processing

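No helicase gene or transcript share was called under any alternative run, and the smallest adjusted p of a named helicase was 0.398. Of 1011 single values recomputed, 947 kept their direction and 64 reversed. Those recomputed with a replicate block could not reverse, since each group held 1 library of each number. Leaving out a library outside the groups compared, or fitting the compared groups alone, could change a value only through the scaling. The count of 947 includes such values. Length-weighted sums and ties with readthrough genes left out were chosen after seeing the data. Reference transcripts alone gave medians of the 6 splicing helicases of -0.029 on K700E induction, -0.025 on WT induction and 0.31 in the interaction, and length-weighted sums gave -0.16 on WT induction. Leaving out 1 library gave medians of -0.44 to -0.12 on K700E induction, -0.20 to 0.025 on WT induction, -0.15 to 0.06 for K700E_induced over WT_induced, -0.03 to 0.30 for K700E_uninduced over WT_uninduced and -0.37 to 0.23 in the interaction. With reference transcripts alone the following reversed. On K700E induction DDX19B stood at 0.79, DDX42 at 2.71, DDX46 at -0.88 and DHX38 at 0.37. On WT induction DDX26B stood at -0.73, DDX42 at 0.27, DDX46 at -2.81, DHX15 at -0.028, DHX38 at -0.022 and DHX8 at 1.84. For K700E_induced over WT_induced DDX46 stood at 0.90 and DHX8 at -0.15, and between the uninduced lines DDX12P at -0.999, DDX42 at -2.50 and DHX38 at -0.80. In the interaction DDX42 stood at 2.45, DDX46 at 1.93, DHX15 at 0.22, DHX38 at 0.39 and DHX8 at -2.91. This alternative drops all assembled forms, so a library in which they held the whole gene is at 0. With length-weighted sums DDX46 reversed on WT induction (-0.028), for K700E_induced over WT_induced (0.076) and in the interaction (0.59), DDX42 in the interaction (0.26) and between the uninduced lines (-0.31), DHX38 between the uninduced lines (-0.012), and DHX15 (0.016) and DHX16 (0.11) in the interaction. A pseudocount of 1 put DHX8 at -0.0011 between the uninduced lines. For the reversals, other causes were not tested. Over the libraries left out in turn, the values on K700E induction ran from -1.71 to 0.069 for DDX19B, -0.037 to 1.37 for DDX46, -0.12 to 0.50 for DHX15 and -0.87 to 0.35 for DHX16, and on WT induction from -0.51 to 0.042 for DHX16 and -0.28 to 0.50 for DHX38. For K700E_induced over WT_induced they ran from -0.30 to 0.22 for DDX42, -0.083 to 0.47 for DHX15, -0.26 to 0.081 for DHX16 and -0.052 to 0.67 for DHX8. Between the uninduced lines they ran from -0.27 to 0.48 for DDX42, -1.55 to 0.36 for DDX46, -0.022 to 0.59 for DHX15, -0.66 to 0.54 for DHX16, -0.29 to 0.39 for DHX38 and -0.77 to 0.77 for DHX8. In the interaction they ran from -0.52 to 0.24 for DDX42, -1.37 to 0.55 for DDX46, -0.39 to 0.22 for DHX15, -0.63 to 0.58 for DHX16 and -0.46 to 1.08 for DHX8. The lone library left in a group was assumed to vary like the others.

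Over 11441 genes, deviations of same-numbered libraries correlated at -0.0249 to 0.0834, which cannot show that the libraries were unpaired. HBZ followed the replicate number within each line. It had 1389 and 2341 FPKM in K700E_induced and 1447 and 2415 in K700E_uninduced. In WT_induced it had 2144 and 867 FPKM, and in WT_uninduced 2430 and 906. GATA1 did not follow the number in the K700E line, with 299 and 291 FPKM in K700E_induced and 222 and 290 in K700E_uninduced. With the replicate number as a block, 0 helicase genes and 0 helicase shares were called in each comparison. The block leaves every fold change between groups as it was, so the medians of the 6 could not move. They were -0.38, -0.07, -0.06, 0.03 and -0.11 in the order K700E induction, WT induction, induced lines, uninduced lines and interaction. Over all genes, the calls in that order were 2, 3, 4, 2 and 3 as reported, 31, 17, 16, 30 and 17 of 15647 with no filter on low values, and 3, 10, 6, 5 and 4 of 11041 with reference transcripts alone.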
